A study of Homo sapiens with 18 samples.

Results

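The 7 genes described here encode cell surface adhesion molecules around ICAM1: ICAM1, ICAM4, ICAM5, VCAM1, CD44, CD47 and CD58. Their members are binding sites of the glucocorticoid receptor (GR) or of RELA for which the deposited table names 1 of these genes as the nearest gene. This gave 14 of 11571 sites, each 400 bp wide: 4 for ICAM1, 4 for CD44, 5 for CD47 and 1 for VCAM1. No site had ICAM4, ICAM5 or CD58 as its nearest gene.

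Chromatin immunoprecipitation sequencing (ChIP-seq) of GR and of RELA was performed in wild-type A549 cells, a human lung carcinoma line used as a model of airway epithelium, so that every value comes from 1 line. Serum-starved cells were left without stimulus (NS) or treated for 1 h with IL-1β at 1 ng/ml, with the inhaled glucocorticoid budesonide at 300 nM, or with IL-1β-plus-budesonide. The series holds 18 libraries in 9 groups of 2, with 8 libraries for GR, 8 for RELA and 2 of input DNA. The table gives 1 binding intensity per site for GR with budesonide, GR with cotreatment, RELA with IL-1β and RELA with cotreatment. Intensities of the NS groups, of GR with IL-1β alone and of RELA with budesonide alone were not analysed here.

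Each intensity is the authors' single value for a condition, not a value per library. Hence no SD, interval or test can be given, the depth is unknown, and no difference below can be set against the spread between libraries. The scale starts at 0 and reaches 11.0, and no source used here states its base, so differences are stated in the table's units and not as folds. An intensity of 4 or more was taken as binding and a difference of 1 or more as a change, and both are descriptive limits.

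GR is a ligand-activated transcription factor that binds glucocorticoid response elements (GREs), and RELA is the transactivating subunit of NF-κB, which enters the nucleus after IL-1β and binds κB elements. ICAM1 is the ligand on epithelium and endothelium for the leukocyte integrins LFA-1 and Mac-1 and is a classical NF-κB target, as is VCAM1, the ligand of the integrin VLA-4. CD44 is the main hyaluronan receptor, CD47 signals to SIRPα on phagocytes, and CD58 is the ligand of CD2 on T cells. ICAM4 is an erythroid adhesion molecule and ICAM5 a neuronal one.

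The reference sequences (GRCh38, plus strand) of the central 200 bp of 3 of the ICAM1 sites are shown because the gene carries the highest RELA intensities of the group. Capitals mark each stretch that matches at least 8 of the 9 defined positions of the κB consensus on either strand. Sites are named by the distance of their centre from the gene's start in GENCODE release 44. The site named for the ICAM1 start has its centre 155 bp upstream of it. Its 200 bp shown here therefore end before the start and hold upstream sequence only.
ICAM1 1.3 kb upstream, chr19:10269702-10269901: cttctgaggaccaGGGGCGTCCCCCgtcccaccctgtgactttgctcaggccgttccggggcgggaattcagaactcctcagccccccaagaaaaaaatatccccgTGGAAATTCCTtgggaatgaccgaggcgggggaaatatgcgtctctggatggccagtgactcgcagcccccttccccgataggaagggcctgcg
ICAM1 start, chr19:10270839-10271038: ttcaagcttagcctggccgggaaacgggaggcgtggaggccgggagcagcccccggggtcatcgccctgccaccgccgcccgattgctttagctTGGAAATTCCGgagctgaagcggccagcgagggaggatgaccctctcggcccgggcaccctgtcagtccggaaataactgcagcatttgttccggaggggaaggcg
ICAM1 intron 1, chr19:10271719-10271918: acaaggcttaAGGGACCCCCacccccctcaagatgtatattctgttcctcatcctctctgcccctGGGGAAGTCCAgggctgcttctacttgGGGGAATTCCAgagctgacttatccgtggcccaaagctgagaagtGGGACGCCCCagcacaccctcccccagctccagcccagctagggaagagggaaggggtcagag

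Of the 4 ICAM1 sites, those 5.6 and 1.3 kb upstream lie before the gene, and the last lies in intron 1. The site at the start lies mostly upstream and runs across the start into the first bases of exon 1. All 4 also lie within an intron of LIMASI, a long noncoding RNA gene on the opposite strand. The sites at the start and 1.3 kb upstream share the element TGGAAATTCC, which matches 8 of the 9 positions and lies 1 bp and 11 bp from the respective centre. The intron 1 site holds GGGGAATTCC, with all 9 positions, 3 bp from its centre.

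RELA intensities at ICAM1 were high with IL-1β, and GR intensities there were higher with cotreatment than with budesonide alone. At the site across the ICAM1 start, the RELA intensity was 7.34 with IL-1β and 6.78 with IL-1β-plus-budesonide. GR at this site was 2.398 with budesonide and 4.32 with cotreatment. GR thus passed 4 only with both treatments, while RELA was above 4 in both of its conditions and lower with cotreatment (a difference of -0.56 units).

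At the site 1.3 kb upstream, RELA was 7.36 with IL-1β and 7.03 with cotreatment, and GR was 3.54 with budesonide and 5.32 with cotreatment. This site and the start site had higher RELA intensities with IL-1β than 98.2% of all 11571 sites. Their GR intensities with budesonide exceeded those of only 33.3% and 17.0% of all sites, respectively. With no value per library, no order can be read between this pair in RELA with IL-1β.

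At the site 5.6 kb upstream, GR was at 0 with budesonide and at 4.15 with cotreatment, the largest GR difference of the 14 sites. RELA there was 5.63 with IL-1β and 5.52 with cotreatment. An intensity of 0 is the lowest value of the table and was given to 2.02% of all sites for GR with budesonide, so a difference from 0 depends on how the scale treats sites without signal.

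The intron 1 site had the lowest intensities of the 4 in RELA, 5.51 with IL-1β and 4.66 with cotreatment. GR was 1.00 with budesonide and 3.44 with cotreatment and so did not reach 4. Along the locus, the highest GR value of either condition was at the site 1.3 kb upstream. All 4 sites were higher in GR, by 1.78 to 4.15 units, and lower in RELA, with differences of -0.12 to -0.86 units, with cotreatment than with the single treatment. The 4 sites lie within 7 kb of each other and are not independent observations.

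**Figure D1:**
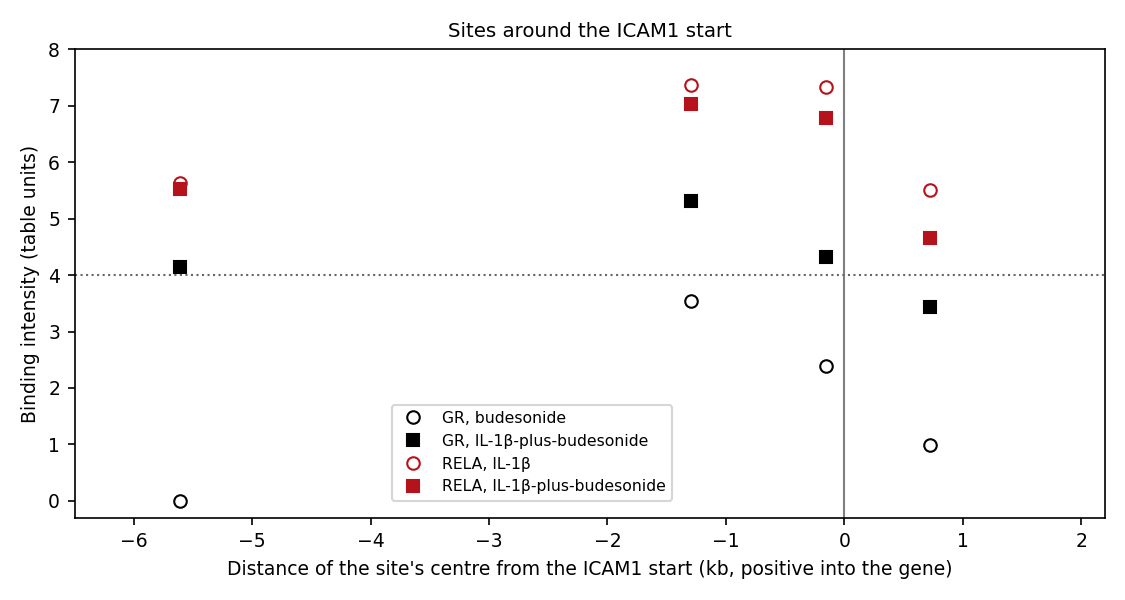
Binding intensity (vertical axis, table units) of the 4 ICAM1 sites against the distance of each site's centre from the ICAM1 start (horizontal axis, kb). Open circles are single treatments and filled squares IL-1β-plus-budesonide, black for GR and red for RELA, each the authors' single value, and the dotted line is an intensity of 4. GR is higher with cotreatment at each site (3.44 to 5.32 against 0 to 3.54), and RELA lies above 4 in both conditions.

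ICAM4 and ICAM5 lie next to ICAM1 on chromosome 19. The nearest site to ICAM4 was 14.9 kb from the gene and the nearest to ICAM5 17.9 kb, in each case a site of ICAM1, and the sites within 50 kb of either gene were the same 4. CD58 had no site within 50 kb, and its nearest site was 137.7 kb away. No value of GR or RELA can therefore be given for CD58 itself, and the intensities near ICAM4 and ICAM5 are those of ICAM1.

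VCAM1 differed from ICAM1 in where its site lay. Its single site was 97.6 kb upstream of the start on chromosome 1, outside any annotated gene. RELA there was 5.04 with IL-1β and 4.80 with cotreatment. GR was at 0 with budesonide and 3.11 with cotreatment, so it did not pass 4 in either condition. No site lay within 50 kb of VCAM1. The sequence upstream of VCAM1 (RefSeq, GRCh38.p14, the 250 bases before the start, in the direction of the gene) is shown beside the distal site because both hold κB matches, marked as above, and only the distal one is a site of the table.
VCAM1 upstream sequence, chr1:100719492-100719741: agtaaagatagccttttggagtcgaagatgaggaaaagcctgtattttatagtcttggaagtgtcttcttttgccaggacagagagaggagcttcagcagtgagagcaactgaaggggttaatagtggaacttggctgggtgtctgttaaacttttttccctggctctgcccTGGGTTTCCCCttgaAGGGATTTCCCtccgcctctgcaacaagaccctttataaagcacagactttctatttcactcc
VCAM1 97.6 kb upstream, chr1:100622085-100622284: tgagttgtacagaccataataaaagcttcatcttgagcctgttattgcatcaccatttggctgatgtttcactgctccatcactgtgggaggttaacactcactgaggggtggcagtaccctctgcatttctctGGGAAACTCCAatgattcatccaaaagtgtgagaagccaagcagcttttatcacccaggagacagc

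The upstream sequence has 4 overlapping matches of at least 8 positions in 2 blocks, of which GGGATTTCCC, 62 to 53 bp before the start, matches all 9. Over 35116 RefSeq promoters of 300 bases, 5.91% held a match of all 9 positions and 50.2% a match of 8 or more. The ICAM1 promoter, by contrast, is overlapped by the site at the ICAM1 start and holds no match of all 9. The distal VCAM1 site holds GGGAAACTCC, with all 9 positions, 39 bp from its centre, and the AP-1 sequence TGATTCA 50 bp from its centre. These are matches of letters and say nothing about occupancy of the individual elements.

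CD44 had 4 sites with unlike patterns. A pair lay upstream of the start on chromosome 11, at 77.2 kb (in an intron of an unnamed long noncoding RNA gene) and at 59.0 kb, and the others lay in the gene, at 20.2 kb in intron 1 and at 47.8 kb across exon 4 of the canonical transcript. The sequences of the site 77.2 kb upstream and of the intron 1 site are shown because their GR and RELA patterns were unlike.
CD44 77.2 kb upstream, chr11:35061628-35061827: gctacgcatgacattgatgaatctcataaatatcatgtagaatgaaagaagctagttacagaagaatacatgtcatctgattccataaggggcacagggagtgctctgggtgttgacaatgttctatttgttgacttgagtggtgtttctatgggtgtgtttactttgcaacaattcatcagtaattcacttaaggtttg
CD44 intron 1, chr11:35158995-35159194: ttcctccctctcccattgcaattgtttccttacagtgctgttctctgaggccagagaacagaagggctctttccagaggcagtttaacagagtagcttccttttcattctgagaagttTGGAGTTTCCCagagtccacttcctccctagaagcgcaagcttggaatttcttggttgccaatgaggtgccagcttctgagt

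The site 77.2 kb upstream was the only one of the 14 whose GR value was above its RELA value, although the intensities of 2 antibodies need not share a scale. GR was 6.02 with budesonide and 4.85 with cotreatment, and RELA was 1.39 with IL-1β and 3.05 with cotreatment. It was also the only site of the group at which GR was lower with cotreatment by 1 or more (a difference of -1.17 units), and the only one at which RELA was higher by 1 or more (1.66 units), although RELA did not reach 4. No κB match of 8 positions was found in its 400 bp.

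The intron 1 site of CD44, like 3 of the ICAM1 sites, passed 4 in GR only with cotreatment. GR was 3.78 with budesonide and 5.14 with cotreatment, and RELA was 5.79 with IL-1β and 5.81 with cotreatment. It holds GGGAAACTCC on the minus strand, the same 10 bases as the distal VCAM1 site, 24 bp from its centre. Of the remaining pair, the site 59.0 kb upstream had RELA at 4.47 with IL-1β and 4.14 with cotreatment, against GR at 1.77 and 2.49. The exon 4 site had RELA at 4.48 and 4.07, against GR at 2.73 and 3.17. At these 2 sites RELA was only just above 4 and GR was below 4 in every condition.

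CD47 lies on the minus strand of chromosome 3 and had 5 sites, none within the gene. One was 39.4 kb upstream of the start, in an intron of the long noncoding RNA gene LINC01215, and the others lay beyond the 3′ end of the gene, by 49.97, 54.5, 55.7 and 226.7 kb. The sequence of the nearest of these is shown as the only CD47 site with a κB match of all 9 positions in the central 200 bp (GGGAGTTTCC, 13 bp from the centre).
CD47 98.7 kb from the start, chr3:107993027-107993226: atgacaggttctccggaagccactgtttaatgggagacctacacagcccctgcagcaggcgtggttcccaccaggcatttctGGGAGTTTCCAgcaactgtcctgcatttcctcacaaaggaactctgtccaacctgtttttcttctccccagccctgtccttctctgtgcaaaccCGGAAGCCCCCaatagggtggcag

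Among the CD47 sites, the highest intensities were at the one 104.5 kb from the start. RELA was 6.55 with IL-1β and 6.61 with cotreatment, and GR was 3.89 with budesonide and 5.68 with cotreatment. Its GR intensity with cotreatment was the highest of the 14 sites and exceeded that of 79.8% of all sites. The site 98.7 kb from the start also had high RELA, 6.10 with IL-1β and 5.68 with cotreatment, but GR was 3.70 and 3.61, the only site besides the distal CD44 site at which GR was not higher with cotreatment. The site 103.3 kb from the start had RELA at 5.68 and 5.65 and GR at 1.57 and 2.51. The sites 104.5, 103.3 and 98.7 kb from the start are neighbours, so they are not independent.

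The last 2 CD47 sites were weaker. At 275.5 kb from the start, RELA was 3.75 with IL-1β and 4.01 with cotreatment, and GR was 1.07 and 2.37. At the site 39.4 kb upstream, RELA was 4.63 with IL-1β and 3.62 with cotreatment, and GR was 2.399 and 2.80. The latter was the only adhesion gene site at which RELA was lower by 1 or more, and its difference of -1.003 units lay at the limit.

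**Figure D2:**
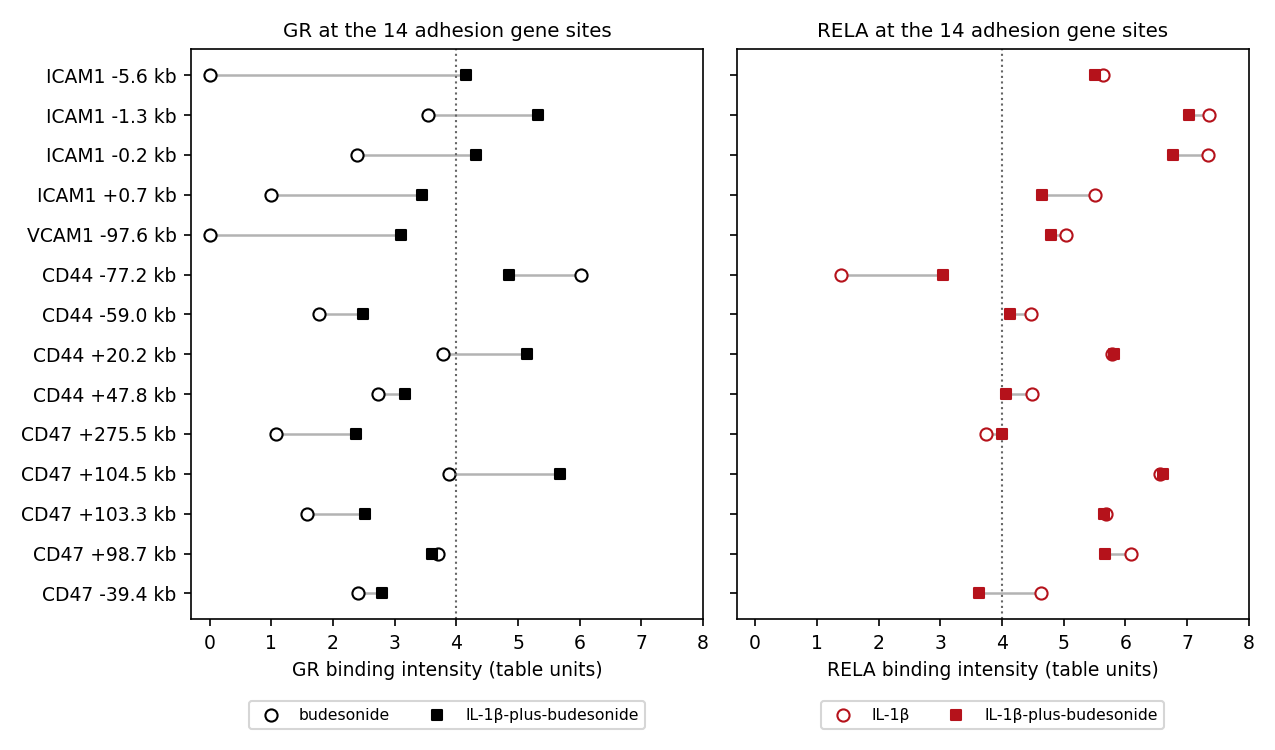
Binding intensity (horizontal axis, table units) of GR (left) and RELA (right) at each of the 14 sites, named by gene and by the distance of the centre from the gene's start. Open circles are budesonide (GR) or IL-1β (RELA), filled squares IL-1β-plus-budesonide, each the authors' single value, and the dotted line is an intensity of 4. GR passes 4 at 1 site with budesonide and at 6 with cotreatment, and RELA at 12 in each condition.

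Counted over the group, RELA binding was frequent and GR binding with budesonide rare. RELA was at 4 or more at 12 of 14 sites with IL-1β, against 54.5% of all sites, and at 12 of 14 with cotreatment, against 61.8%. GR was at 4 or more at 1 of 14 sites with budesonide, against 61.5% of all sites, and at 6 of 14 with cotreatment, against 68.2%. The median GR intensity with budesonide was 2.398 over the 14 sites and 4.65 over all sites, and the median RELA intensity with IL-1β was 5.57 and 4.26. The sites of a gene are neighbours, so the counts are a description of 4 loci.

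Of the 6 sites that reached 4 in GR with either treatment, 5 were higher with cotreatment by 1 or more (3 of ICAM1, 1 of CD44 and 1 of CD47), against 22.4% of 8997 such sites in the table, and 1 was lower, against 15.3%. All 5 were below 4 with budesonide and entered this set only through their value with cotreatment. Their direction was thus fixed by the limit, and the count of 5 is no evidence of a rise. Of the 13 sites that reached 4 in RELA with either treatment, 0 were higher by 1 or more, against 17.5% of 8006, and 1 was lower, against 9.09%. These counts need the sites of like kind beside them, since most adhesion gene sites were RELA sites with little GR under budesonide.

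Set against such sites, the group's shares lay near those of the table. In 12 adhesion gene sites, RELA was at 4 or more with IL-1β and GR below 4 with budesonide, as in 3935 sites of the table. GR was higher with cotreatment at 11 of the 12, against 88.1% of the 3935, and by 1 or more at 7 of the 12, against 55.7%. GR reached 4 with cotreatment at 5 of the 12, against 37.6%. The median GR difference was 1.58 units over the 12 sites and 1.15 over the 3935. Over all 11571 sites it was 0.12 units. Choosing sites with GR below 4 with budesonide itself favours a higher value with cotreatment. These counts thus compare the group with sites chosen alike and are no evidence of a rise.

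The RELA differences likewise lay near those of other RELA sites. Of the 12 sites at 4 or more with IL-1β, RELA was lower with cotreatment at 10, against 70.8% of 6308 such sites, and was at 4 or more in both conditions at 11, against 86.4%. The median RELA difference was -0.33 units over the 12 sites and -0.32 over the 6308. Over all 11571 sites it was 0.07 units. Choosing sites by a high RELA value with IL-1β itself favours a lower value with cotreatment, so these counts are no evidence of a fall. For ICAM1 alone, the 4 GR differences exceeded those of 70.1% to 98.2% of the 3935 sites, and the 4 RELA differences exceeded those of 16.4% to 64.2% of the 6308.

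**Figure D3:**
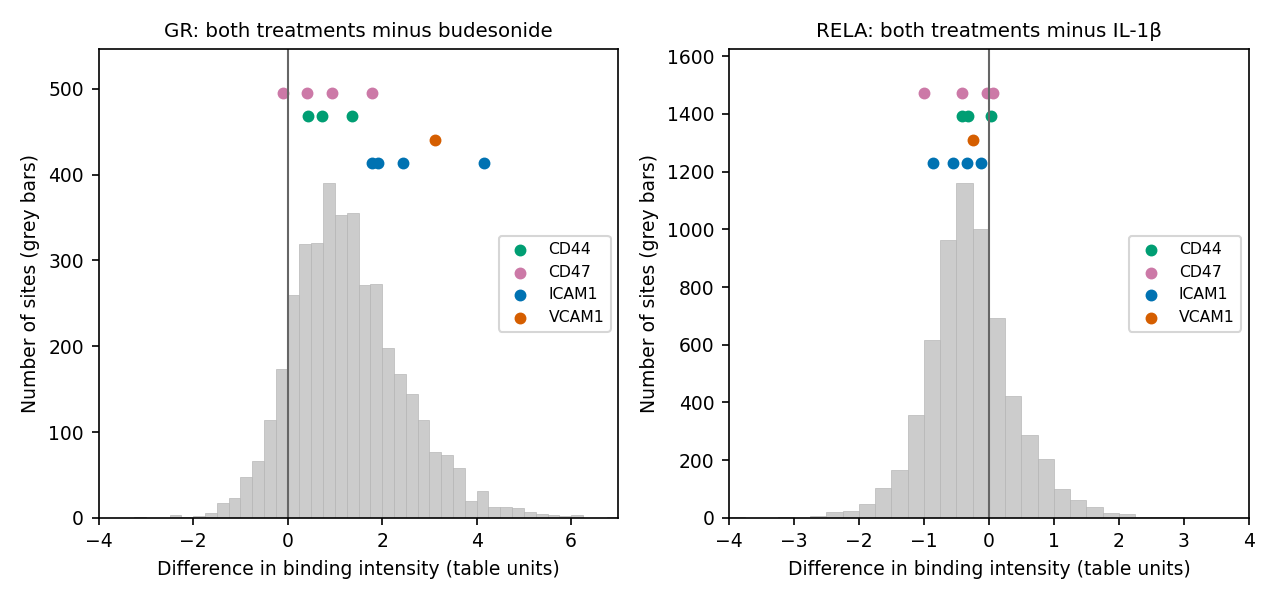
Number of sites (vertical axis, grey bars of 0.25 units) by the difference in binding intensity between cotreatment and the single treatment (horizontal axis, table units), for GR over the 3935 sites with RELA at 4 or more with IL-1β and GR below 4 with budesonide (left) and for RELA over the 6308 sites at 4 or more with IL-1β (right). Coloured points are the 12 adhesion gene sites in each set, set apart in height by gene only. The points of both panels lie within the spread of the grey bars.

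κB matches were more frequent in the group than palindromic GRE matches, as they were over the sites with RELA at 4 or more with IL-1β. The searches differ in length and in the mismatches allowed, so their counts are not on a common scale. Within the central 200 bp, 5 of 14 sites held a κB match of all 9 positions, against 18.7% of all sites and 30.4% of the sites with RELA at 4 or more with IL-1β. A match of 8 or more positions was found in 11 of 14 sites, against 49.0% and 65.2%. AP-1 (TGANTCA) was found in 3 of 14 sites, against 21.0% of all sites.

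The palindromic GRE (10 of its 12 defined positions) was found in 0 of 14 sites, against 12.4% of all sites, 18.3% of the sites with GR at 4 or more with budesonide and 2.93% of the sites with RELA at 4 or more with IL-1β, the class that holds 12 of the 14. Its letters were set after a first search had been seen: with either purine and either pyrimidine allowed at the outer bases, 1 of 14 sites matched, at CD47 275.5 kb from the start, against 24.8% of all sites and 7.29% of these RELA sites. At 9 positions the counts were 2 of 14 with fixed outer bases, against 34.5% and 15.8%, and 6 of 14 with the wider letters, against 53.6% and 32.3%. A shorter GRE of the 6 central defined positions, all matched, was found in 0 of 14 sites, against 26% of all sites and 10.6% of the RELA sites. The absence of these letters says nothing about GR binding by other means.

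**Figure D4:**
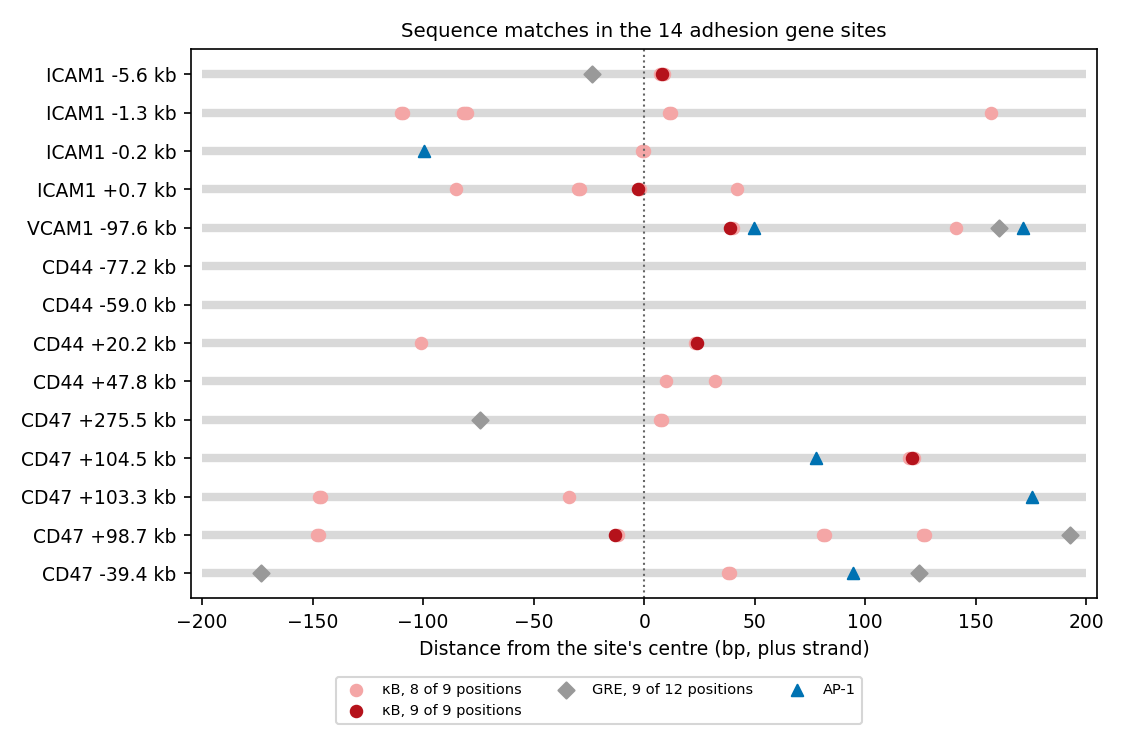
Position of sequence matches (horizontal axis, bp from the site's centre on the plus strand) in the 400 bp of each of the 14 sites. Dark red circles are κB matches of all 9 positions, pale circles κB matches of 8, grey diamonds palindromic GRE matches of 9 of 12 positions with fixed outer bases, and blue triangles AP-1. A κB match of 8 or more positions lies in the central 200 bp of 11 of the 14 sites, and none is drawn at the 2 CD44 sites upstream of the gene.

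By the 4 intensities, measured as a Euclidean distance over 4 conditions, the sites most like the one at the ICAM1 start were those nearest to IL4I1 (distance 0.22), SLC39A8 (0.37), TBL1XR1 (0.37), SUFU (0.39) and KLHL5 (0.44). Those most like the CD44 intron 1 site were nearest to CYB5R3 (0.19), AGR2 (0.20), NUMBL (0.27), AGTRAP (0.27) and GJA3 (0.29). These are sites of genes of other kinds. Nearest sites can be named for any site of the table, and the distance usual for a site was not determined, so the ranking is descriptive only.

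A list of 39 other adhesion genes (selectins, integrins and their ligands, junctional molecules, hyaluronan synthases and the ERM proteins that link CD44 to actin) had 42 sites at 15 genes. With IL-1β 24 of the 42 had RELA at 4 or more and with cotreatment 30 did, and GR was at 4 or more at 20 with budesonide and 31 with cotreatment, against the shares of all sites given above (54.5% and 61.8% for RELA, 61.5% and 68.2% for GR). Of 32 sites that reached 4 in GR, 13 were higher by 1 or more and 3 lower with cotreatment. Over such sites of the whole table these shares were 22.4% and 15.3%. Of 34 in RELA, 8 were higher and 1 lower, against 17.5% and 9.09%. Sites that reached 4 only with cotreatment could only be higher.

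The highest RELA intensities with cotreatment on this list were at single sites nearest to ITGAM (the α chain of Mac-1), PECAM1 and the hyaluronan synthase HAS2. They were 6.88 (6.91 with IL-1β), 6.51 (6.82) and 6.30 (5.28), respectively. By the authors' distances, these sites lie at 5.4, 69.1 and -82.8 kb from the gene starts. The highest GR intensities with cotreatment were at single sites nearest to MSN (an ERM protein), HAS2 (the same site) and RDX (an ERM protein). They were 8.24 (8.60 with budesonide), 7.42 (7.34) and 6.87 (6.90), respectively. The MSN site lies at 184.4 kb and the RDX site at 100.1 kb from the gene start. GR at these sites of MSN, HAS2 and RDX differed by less than 0.5 units between treatments. HAS2 and RDX also had other sites, with other values. RELA at the MSN site was 0 with IL-1β and 5.23 with cotreatment.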

How the data were processed

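GR and RELA ChIP-seq libraries of A549 cells from 2 independent experiments were sequenced by the authors. The submitters' processing notes name bcl2fastq, FastQC 0.10.1, Bowtie2 2.4.4, SAMtools, MACS2 2.2.7.1 and DiffBind 3.2, and GRCh38. The deposited binding intensity was treated as a score: the authors gave 1 value per site, factor and treatment, and how these values were made from the 2 libraries, and on what scale, is not stated for the table. For their genome browser tracks, the authors pooled the aligned reads of each treatment and scaled them to sequencing depth. Columns with the authors' own comparisons (fold against NS, FDR, significance and 2 classes of behaviour) were not used. The table's 46284 lines were arranged as 11571 sites by 4 conditions, and starts were read as 0-based. Sites were assigned by the table's nearest gene, and placed on GENCODE release 44. Differences are cotreatment minus the single treatment. Sequence was read from GRCh38, searched on both strands within 200 bp, with a search tested on simulated data. The κB consensus has 9 defined positions and the palindromic GRE 12. A first GRE search allowed wider outer bases. Its letters were then changed to fixed outer bases, after its counts had been seen, because these gave the share of all sites known from earlier processing of the table, and both counts are reported. Named genes were the 7 members, the 5 nearest sites by pattern and the 3 highest listed sites per factor. The members and lists were chosen with earlier results of these data known. No test was run, since no value per library was at hand, and precision could not be estimated from depth. Alternatives were the intensity minimum, the size of change, subtraction of the median difference, assignment by position within 50 kb, and the search window and stringency. Python 3.11.15 and pandas 2.3.3 were used. The sequence of 1 ICAM1 site is not reported here.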

Additional observations from a re-analysis of the deposited data

How the results depend on the processing

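No paired analysis was possible because the table holds no value per library, and for the same reason no replicate was left out. With an intensity minimum of 3, 5 sites passed in GR with budesonide (1 at the minimum of 4), 10 in GR with cotreatment (6), and 1 site was higher in RELA (0), the CD44 site 77.2 kb upstream. With a minimum of 5, 3 sites passed in GR with cotreatment, 7 in RELA with cotreatment (12), 3 of 4 were higher in GR (5 of 6) and 0 were lower in RELA (1). With a change of 0.5, 3 sites were lower in RELA. With a change of 1.5, 0 were lower in GR (1) and 0 in RELA. With the median difference subtracted, 0 were lower in RELA. With the 8 sites within 50 kb by position, 0 passed in GR with budesonide, 7 passed in RELA with cotreatment and 0 were lower in GR. The κB count was 11 at 8 positions (5 at 9). The GRE count was 2 at 9 positions (0 at 10), and 1 at 10 and 6 at 9 positions with the wider outer bases, an alternative added after seeing the data (it was the pattern searched first). Over the whole site, AP-1 matched 5 sites (3) and the short GRE 1 (0). The other 24 alternatives stayed within 1.5 times the count. At single sites, subtracting the median difference took the GR difference at the CD47 site 103.3 kb from the start to 1.03, past the limit of 1, and the RELA difference at the CD47 site 39.4 kb upstream to -0.88, short of it. The single calls of a fall in GR and in RELA thus rest on the limits chosen, and the cause was not tested. The depth behind each intensity is unknown.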
